A study of Mus musculus with 4 samples.

Results

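The genes described here encode the extracellular and membrane layer of Wnt signalling: the Wnt ligands, their Frizzled receptors, the Lrp5 and Lrp6 co-receptors, the Ror receptor kinases, and the Dkk and Sfrp antagonists. Members were chosen by symbol among protein-coding genes, as every Wnt, Fzd, Dkk or Sfrp gene whose family name is followed by a digit, plus Lrp5, Lrp6, Ror1 and Ror2. This gave 41 genes of 55385 listed, made up of 19 ligands, 10 Frizzleds, 4 Dkk genes, 4 Sfrp genes, 2 Lrp co-receptors and 2 Ror kinases. Bulk RNA sequencing was done on 4TO7 cells, a mouse mammary carcinoma line, taken from enzymatically digested tumors of BALB/c mice. In 2 libraries the tumors had become resistant to anti-PD-L1, which is an antibody against a ligand that restrains T cells, and the other 2 were controls. All 4 samples carry the treatment label untreated while their treatment protocol names anti-PD-L1 in vivo, so what the control tumors received is unresolved. The labels name no genetic change, no animal age and no number of animals per library, and the cells are of 1 line.

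Wnt proteins are lipid-modified secreted ligands that bind Frizzled receptors. Together with Lrp5 or Lrp6 they stabilise beta-catenin, which acts with TCF/LEF factors on target genes, and through Ror kinases and other partners they act on cell polarity and movement without beta-catenin. Sfrp proteins carry a Frizzled-like domain and bind Wnt ligands outside the cell, and Dkk proteins bind Lrp5 and Lrp6. In the mammary gland Wnt signals maintain stem and progenitor cells, and Wnt1 was found as a gene activated by a tumor virus in mouse mammary tumors.

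The libraries held 45666470 to 49592054 counted reads. Values are normalized counts, that is reads divided by the authors' size factor for the library, and differences are log2 fold changes, resistant minus control, of the normalized count plus 1. The standard deviation of the log2 difference over 14238 tested genes was 0.31 between the resistant libraries, against 0.45 between the control libraries. Separate animals are not stated for the libraries, and p-values then cover nothing but how these 4 libraries vary. Of the luminal keratins, Krt8 and Krt18 were abundant, Krt18 with 30056 and 35171 normalized counts in resistant and 42630 and 27813 in control libraries, while the basal keratins Krt5 and Krt14 had no read. The epithelial markers Krt19 and Epcam had far fewer reads and differed between the groups: Krt19 had 298 and 425 in resistant and 48.0 and 41.4 in control libraries, and Epcam had 87.6 and 114 in resistant and 341 and 246 in control libraries. The pan-leukocyte gene Ptprc had at most 2.15 normalized counts in any library.

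Of the 41 members, 19 reached a mean of 10 normalized counts over the 4 libraries and were tested, and 22 did not. No read in any library was counted for 12 of these 22, namely Dkk1, Dkk2, Dkk4, Fzd8, Fzd10, Ror2, Wnt2, Wnt3a, Wnt5a, Wnt7a, Wnt8b and Wnt16. Such a count allows up to 3 reads per library, or 2.88 to 3.22 normalized counts, for counting error only. The other 10, Dkk3, Fzd1, Fzd3, Sfrp2, Sfrp5, Wnt3, Wnt4, Wnt8a, Wnt9b and Wnt11, had at most 5 reads in a library and 6 reads in all. The gap between the classes was wide: the highest mean among untested members was 1.54 normalized counts, and the lowest among tested members was 24.8 for Wnt2b. All 4 Dkk genes, which encode inhibitors of the Lrp co-receptors apart from the divergent Dkk3, were thus below the limit, as was Wnt5a, a ligand of Ror receptors. Tested members were 8 ligands, 6 Frizzleds, Lrp5, Lrp6, Ror1, Sfrp1 and Sfrp4.

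Resistant cells had more transcripts of 2 Frizzled receptors, Fzd9 and Fzd4, and of 2 secreted antagonists, Sfrp4 and Sfrp1. No ligand, Lrp co-receptor or Ror kinase passed the test in either direction. In limma with Benjamini-Hochberg adjustment over all tested genes, 4 of the 19 tested members rose (21.1%) and none fell, against 5.32% of all 14238 tested genes that rose and 4.73% that fell (10.1% in either direction). At an unadjusted p under 0.05, 7 members were higher and 0 lower, against 13.8% and 12.6% of all tested genes. A limma voom fit on recovered reads called 4 members higher and 0 lower, against 5.21% and 4.51% of all tested genes. The median log2 fold change was 0.04 over the 19 members and 0.00 over all tested genes. In bulk samples such as these, fewer cells of a type and less RNA per cell cannot be told apart.

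**Figure D1:**
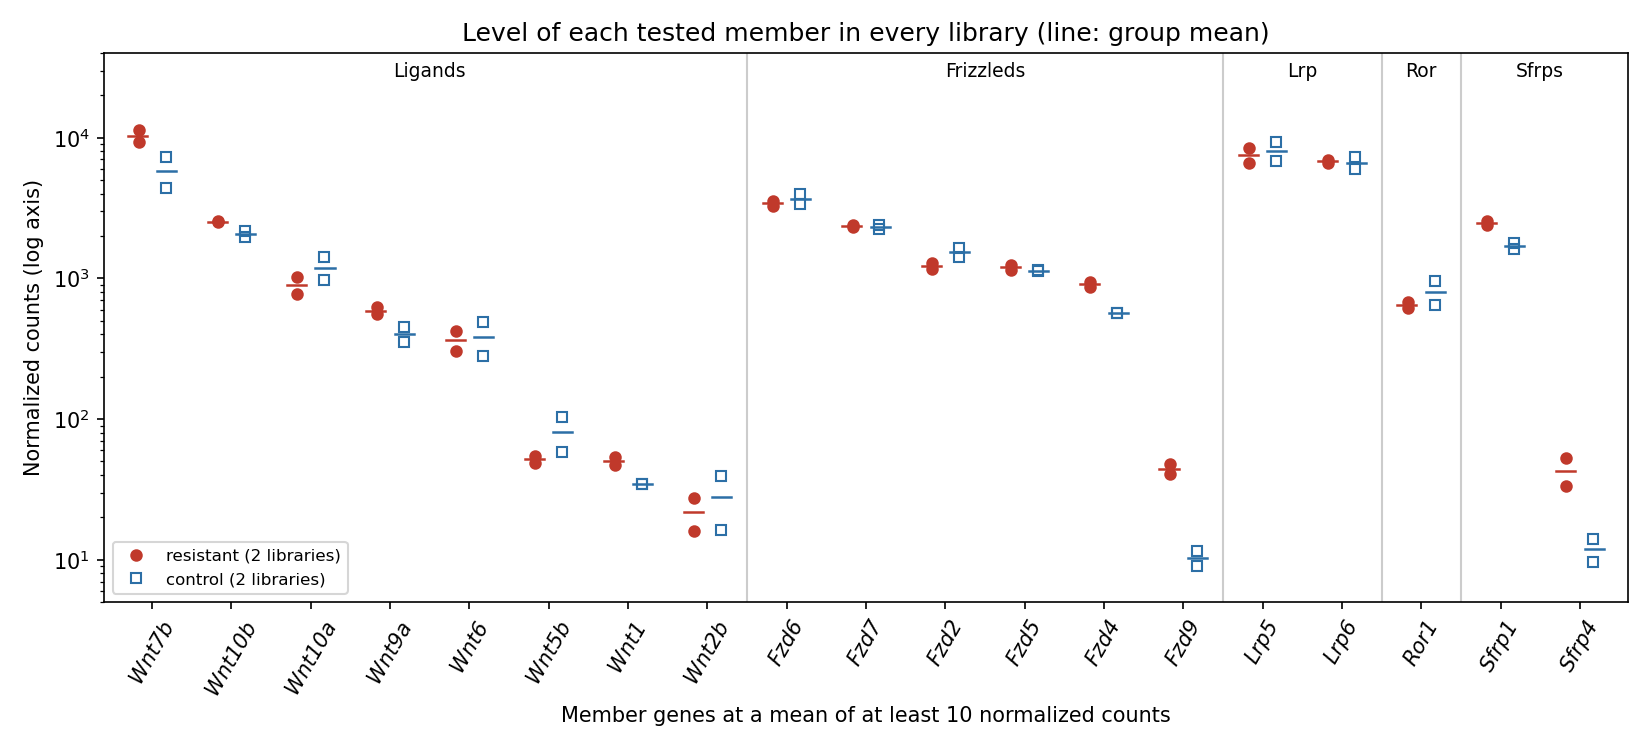
Normalized counts (log axis) of the 19 tested members in each resistant (filled circles) and control (open squares) library, with a line at each group mean. Wnt7b has the highest level of the ligands in every library, and the resistant points of Fzd9, Fzd4, Sfrp4 and Sfrp1 lie above both control points.

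Among the receptors, Fzd9 had the largest log2 fold change of the 19 tested members. Fzd9 (ENSMUSG00000049551.2, chromosome 5, 135248938 to 135251230, GRCm38) encodes a Frizzled of skeleton, muscle and nervous tissue. It had 47.9 and 40.8 normalized counts in the resistant libraries, against 11.5 and 9.08 in the control libraries. Both resistant libraries lay above both controls at a low level, with 85 reads summed over the resistant and 21 over the control libraries. The mean was 44.3 ± 5.05 in resistant and 10.3 ± 1.73 in control cells (SD, n = 2 each), which is 2.01 ± 0.36 on the log2 scale (SE, limma adjusted p = 0.0159). The ratio of reads, scaled by the size factors of the libraries, was 4.30, with a 95% exact interval of 2.64 to 7.30 that covers counting error only. Its annotation has 1 exon block and no intron.

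Fzd4, a receptor for Wnt ligands and for Norrin that is known for its role in retinal and brain vessels, also rose. Its values were 949.8 and 874 normalized counts in resistant libraries, against 569 and 571 in control libraries. The groups were well apart and the control libraries nearly equal. Means of 912 ± 53.5 in resistant and 569.8 ± 1.52 in control cells (SD, n = 2 each) differed by 0.68 ± 0.14 on the log2 scale (SE, limma adjusted p = 0.0238). Fzd4 (ENSMUSG00000049791.4) lies on chromosome 7, 89404355 to 89413134, with 2 exon blocks. The 13 other tested genes within 1 Mb had a median of 0.07 on the log2 scale, and none of them was called in either direction. Around Fzd9, 41 such neighbours had a median of 0.01, with 4 called higher and 2 lower.

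The promoter of Fzd4 is shown because it is the better expressed of the called receptors, and because the RefSeq promoter table holds 27 of the 41 members, Fzd4 and Fzd9 among them but not Sfrp1, Sfrp4 or Wnt7b. The stretch runs from 250 bases before the RefSeq start up to the GENCODE start of the gene, chr7:89404116-89404354 on the plus strand of GRCm38.p6, 5′ to 3′, with matches to the GC box GGGCGG on either strand in capitals:
Fzd4: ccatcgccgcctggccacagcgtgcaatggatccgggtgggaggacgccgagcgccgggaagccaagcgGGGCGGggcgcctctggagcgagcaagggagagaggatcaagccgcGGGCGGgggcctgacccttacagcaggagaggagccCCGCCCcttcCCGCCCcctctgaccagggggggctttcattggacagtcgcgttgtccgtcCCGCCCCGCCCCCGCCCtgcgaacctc
The 250 bases before the RefSeq start held 7 GGGCGG matches for Fzd4 and 1 for Fzd9, the capitals of neighbouring matches running together where they abut or share bases. At least 1 match was present in 32.7% of all 32851 RefSeq windows of this length. The letters CTTTGA and CTTTGT, the core bound by TCF/LEF factors, were searched on both strands and were in neither window, against 13.8% and 16.5% of all windows. TATAAA was also in neither, against 12.4%. The Fzd4 window held 25 CpG dinucleotides and the Fzd9 window 42, where the median over all windows was 6. Of the Fzd9 window, 183 bases lie inside the first exon by GENCODE, so it is not printed.

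The 4 other tested Frizzleds gave no call. Fzd6, which antagonises beta-catenin signalling and acts in planar polarity, had 3542 and 3292 normalized counts in resistant and 3385 and 3956 in control libraries, with overlapping groups. Fzd7, a receptor studied in mammary stem cells, had 2321 and 2413 in resistant and 2249 and 2407 in control libraries, also overlapping. The log2 fold change of Fzd7 was 0.02, with a 95% interval of -0.23 to 0.28. Fzd5 was at 1152 and 1253 in resistant and 1145 and 1121 in control libraries, with a log2 fold change of 0.08 and an interval of -0.20 to 0.37. Fzd2 was below both controls in both resistant libraries, at 1172 and 1295 against 1656 and 1408 normalized counts, and its log2 fold change of -0.31 ± 0.14 (SE) missed the threshold (limma adjusted p = 0.196).

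Levels between genes were compared as normalized counts per kilobase of exon. On that scale Fzd6 led the Frizzleds with 709 ± 36.8 in resistant and 762 ± 83.7 in control cells (SD, n = 2 each). Fzd7 followed with 522 ± 14.3 in resistant and 514 ± 24.7 in control cells, then Fzd2 with 337 ± 23.7 and 418 ± 47.9. Next came Fzd5 with 174 ± 10.4 in resistant and 164 ± 2.51 in control cells, and Fzd4 with 136 ± 7.96 and 84.8 ± 0.226. Fzd9 stood last of the tested receptors at 19.3 ± 2.20 and 4.49 ± 0.756. The order was the same in all 4 libraries, and no neighbours in it exchanged places. Fzd4 made up 7.45% and 6.85% of the Frizzled sum in resistant libraries and 4.44% and 4.27% in control libraries. Fzd9 made up 1.10% and 0.936% in resistant and 0.264% and 0.199% in control libraries. The sum over the 10 Frizzleds was 1896 and 1899 per kilobase in resistant and 1907 and 1988 in control libraries, a ratio of 0.974.

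**Figure D2:**
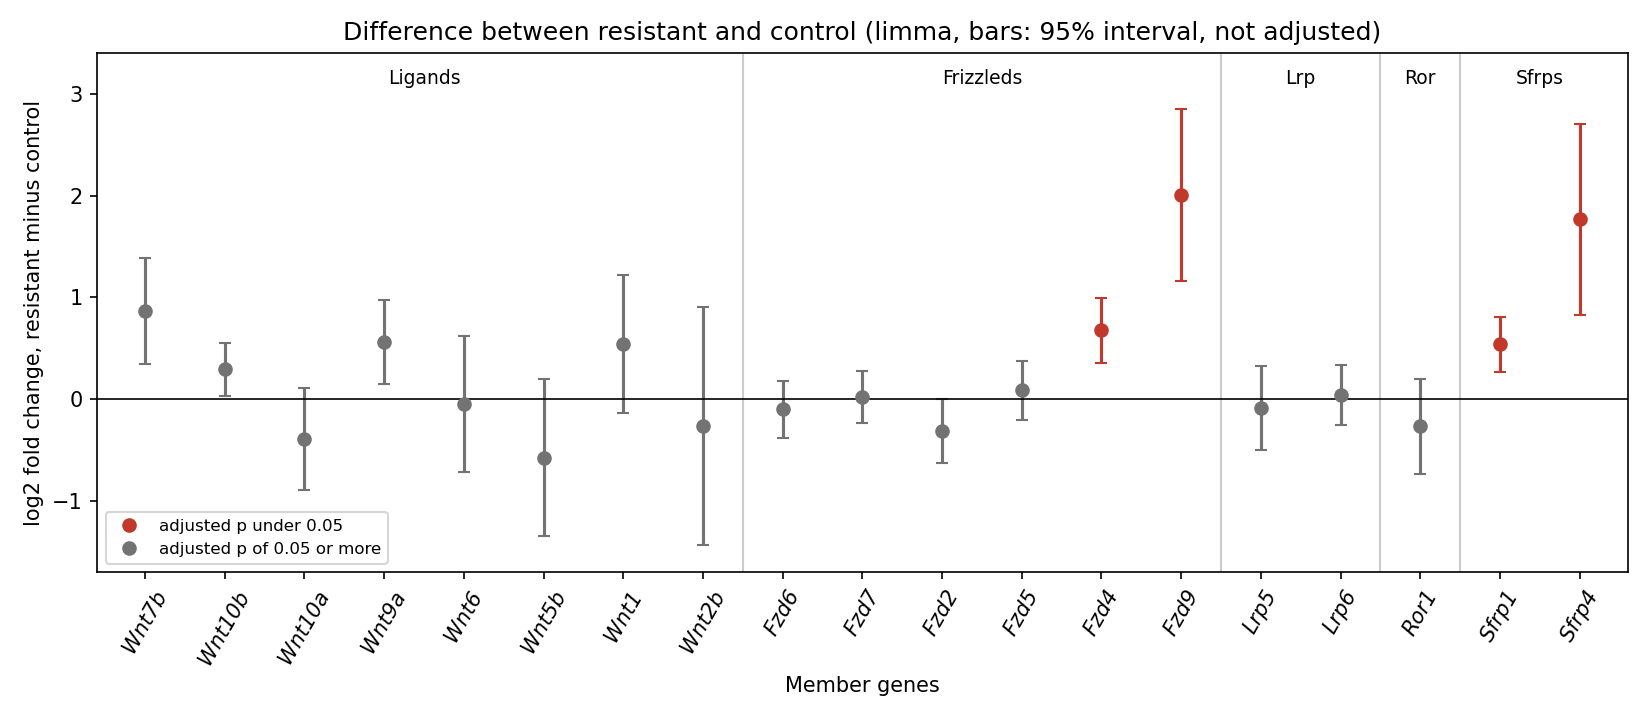
Log2 fold change, resistant minus control, of each tested member with its 95% interval from limma, not adjusted for multiple testing. Fzd9 (2.01), Sfrp4 (1.77), Fzd4 (0.68) and Sfrp1 (0.54), in red, passed the adjusted threshold, and Wnt7b (0.86) did not.

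Both tested antagonists rose. Sfrp1 (ENSMUSG00000031548.7, chromosome 8, 23411502 to 23449632) encodes a secreted Wnt-binding protein that is often silenced by promoter methylation in human breast carcinoma. It had 2399.9 and 2555 normalized counts in resistant libraries, against 1794 and 1618 in control libraries. The groups did not overlap, and each pair was close together relative to the gap. The means of 2477 ± 109.6 in resistant and 1706 ± 125 in control cells (SD, n = 2 each) differed by 0.54 ± 0.12 on the log2 scale (SE, limma adjusted p = 0.0299).

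Sfrp4, a secreted antagonist with a role in bone, rose as well. The gene (ENSMUSG00000021319.7, chromosome 13, 19623104 to 19632994) had 33.6 and 52.6 normalized counts in resistant libraries, against 9.61 and 14.1 in control libraries. Both pairs spread widely, yet the lower resistant library exceeded the higher control. Its mean was 43.1 ± 13.4 in resistant and 11.9 ± 3.19 in control cells (SD, n = 2 each), higher by 1.77 ± 0.40 on the log2 scale (SE, limma adjusted p = 0.0351) and 82 reads in the resistant against 24 in the control pair. The ratio of reads, scaled by the size factors in the same way, was 3.63 (95% exact counting interval 2.28 to 5.98). Per kilobase, Sfrp1 carried 98.6% and 97.9% of the Sfrp sum in resistant and 99.4% and 98.8% in control libraries, so the sum followed Sfrp1. That sum was 557 and 597 in resistant and 413 and 374 in control libraries, a ratio of 1.47. Sfrp2 and Sfrp5 had at most 1 read in any library. The neighbours of Sfrp1 within 1 Mb, 15 tested genes, had a median log2 fold change of 0.06 with 1 called higher and 1 lower, and the 4 neighbours of Sfrp4 had a median of 0.14 with 1 called higher.

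These 4 calls needed both resistant libraries. Without resistant replicate 1 the log2 fold changes were 1.89 for Fzd9, 0.62 for Fzd4, 2.08 for Sfrp4 and 0.58 for Sfrp1, and none of the 4 passed (limma adjusted p = 0.165, 0.301, 0.109 and 0.192). Without resistant replicate 2 they were 2.12, 0.74, 1.45 and 0.49 in the same order, and none passed (limma adjusted p = 0.109, 0.178, 0.321 and 0.289). In those fits the error rested on the control pair alone, and of all tested genes 1.42% rose and 1.64% fell without resistant replicate 1, and 1.03% rose and 1.88% fell without resistant replicate 2. With control replicate 1 or 2 left out all 4 passed (against 12.7% and 14.6% of all tested genes that rose in those fits), at 2.16 and 1.85 for Fzd9, 0.67 and 0.68 for Fzd4, 1.51 and 2.02 for Sfrp4, and 0.61 and 0.46 for Sfrp1. The direction could not change with a library left out, since both resistant libraries lay above both controls for all 4. Without the filter on low values none of the 4 passed (limma adjusted p = 0.0753 for Fzd9, 0.0776 for Fzd4, 0.129 for Sfrp4 and 0.102 for Sfrp1), and without a trend in the moderation Fzd9 alone of the 4 passed.

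**Figure D3:**
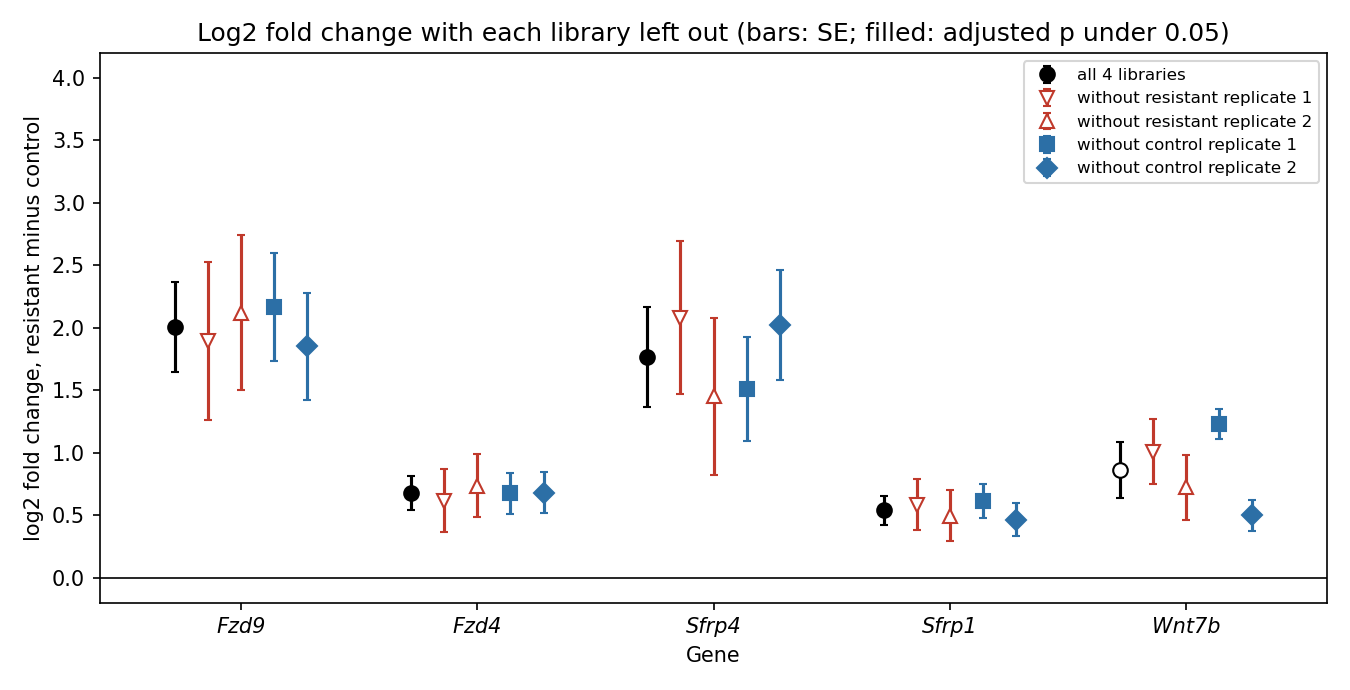
Log2 fold change, resistant minus control, with its SE, of the 4 called members and Wnt7b with all libraries and with each library left out; filled symbols have an adjusted p under 0.05. Values stay above 0 in every fit, as they must with both resistant libraries above both controls. The calls end when a resistant library is left out. Of the fits shown, Wnt7b passes only in those with a control library left out, whose error rests on the resistant pair alone.

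Wnt7b was the most abundant ligand per kilobase of exon. Its protein is made by mammary and other epithelia and by neurons, and it signals through beta-catenin in several tissues. Wnt7b (ENSMUSG00000022382.15, chromosome 15, 85535437 to 85582473) had 9346 and 11371 normalized counts in resistant libraries, against 7287 and 4397 in control libraries. Both resistant libraries were above both controls, but the controls were far apart. Means were 10358 ± 1432 in resistant and 5842 ± 2044 in control cells (SD, n = 2 each). The log2 fold change of 0.86 ± 0.22 (SE) narrowly missed the threshold (limma adjusted p = 0.0527). The value was 1.23 with control replicate 1 left out and 0.50 with control replicate 2 left out. In those fits the error rested on the resistant pair alone. With resistant replicate 1 and then 2 left out it was 1.01 and 0.72. The 20 tested neighbours within 1 Mb had a median of 0.12. An annotated antisense gene, AU022754, shares 324 exonic bases with Wnt7b, 6.62% of its exon length, and had 18.3 to 33.6 normalized counts. The strand setting of the counting was not given in the sources.

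Wnt10b and Wnt9a, like Wnt7b, were higher in both resistant libraries without passing in the limma fit on the deposited values of all 4 libraries. Wnt10b, which drives mammary hyperplasia in transgenic mice, had 2539 and 2511 normalized counts in resistant and 2163 and 1963 in control libraries, higher by 0.29 ± 0.11 on the log2 scale (SE, limma adjusted p = 0.148). Wnt9a, a ligand of joint and liver development, had 559 and 622 in resistant and 354 and 452 in control libraries, with 0.56 ± 0.18 (SE, limma adjusted p = 0.0931). With control replicate 1 and then 2 left out, log2 fold changes were 0.36 and 0.22 for Wnt10b, and 0.38 and 0.74 for Wnt9a. Wnt1, the mammary oncogene, was at a low level of 54.0 and 47.2 in resistant and 34.6 and 34.3 in control libraries, and its log2 fold change of 0.54 had an interval of -0.14 to 1.22. Wnt5b, a ligand that acts mostly without beta-catenin, was lower in both resistant libraries, at 48.9 and 54.7 against 103 and 58.5 in control libraries, with an interval of -1.35 to 0.20. The interval of Wnt2b, at 27.5 and 16.1 in resistant and 16.3 and 39.3 in control libraries, was the widest of the 19 at -1.43 to 0.91.

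Wnt10a, a ligand of skin, tooth and hair, and its neighbour Wnt6 varied within the groups by more than between them. Wnt10a had 773 and 1029.7 normalized counts in resistant and 1414 and 968 in control libraries. Wnt6 had 305 and 425 in resistant and 489 and 282 in control libraries. In both genes control replicate 1 was highest, resistant replicate 2 next, and the groups overlapped. They lie on the same strand of chromosome 1 with 6193 bases between them. Wnt10b and Wnt1 face away from each other on chromosome 15, with 11706 bases between them, and both had higher values in both resistant libraries. Of the other adjacent ligand pairs, Wnt3a was at 0 reads beside the expressed Wnt9a, 16175 bases away on chromosome 11, and Wnt9b and Wnt3 both had at most 5 reads in a library.

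Per kilobase of exon, Wnt7b took 57.4% and 59.5% of the ligand sum in resistant libraries, and 48.2% and 41.2% in control libraries. Wnt10b took 22.5% and 18.9% in resistant and 20.6% and 26.5% in control libraries. Wnt10a took 9.43% and 10.7% in resistant and 18.6% and 18.0% in control libraries. Wnt6 and Wnt9a took between 3.44% and 7.23% each in any library, and Wnt5b, Wnt1 and Wnt2b at most 1.26%. Wnt7b, Wnt10b and Wnt10a held the same order in every library, while Wnt9a and Wnt6 exchanged places between libraries. The sum over all 19 ligands was 3324 and 3904 per kilobase in resistant and 3084 and 2178 in control libraries, a ratio of 1.37. Without Wnt7b the ratio was 1.04 and the groups overlapped, at 1416 and 1583 in resistant and 1596 and 1280.5 in control libraries. The ligand sum was 5.97 and 6.54 times the Sfrp sum in resistant libraries and 7.47 and 5.82 times in control libraries, with overlapping groups.

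**Figure D4:**
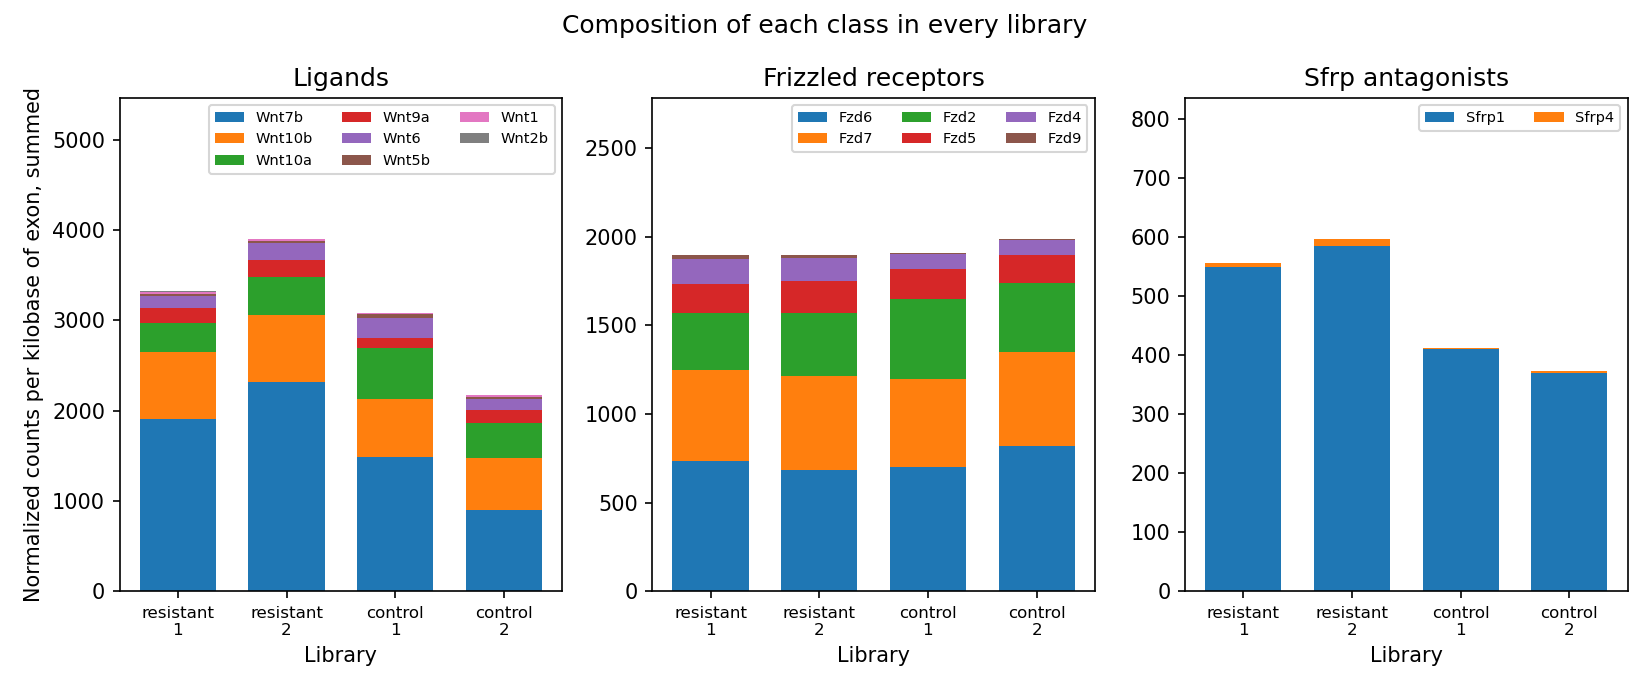
Normalized counts per kilobase of exon of the tested ligands, Frizzleds and Sfrp antagonists, stacked for each library from 0. The bars of the 8 tested ligands reach 3323 and 3902 in resistant and 3083 and 2178 in control libraries, and Wnt7b is their largest segment, while the Frizzled bars lie between 1896 and 1988 in all 4 libraries.

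The co-receptors and Ror1 gave no call. Lrp5 had 6646 and 8436 normalized counts in resistant and 9285 and 6798 in control libraries, with overlapping groups and an interval of the log2 fold change of -0.50 to 0.32. Lrp6 had 6659.7 and 6914 in resistant and 5953 and 7342 in control libraries, with an interval of -0.26 to 0.33. Ror1, a receptor kinase of the Ror family and a target studied in breast carcinoma, had 616 and 683 in resistant and 951 and 642 in control libraries, with an interval of -0.74 to 0.20. For Lrp5 and Ror1, as for Wnt10a, Wnt6 and Wnt7b, control replicate 1 was well above control replicate 2. Without control replicate 2, 5 members passed as lower in resistant cells (against 14% of all tested genes in that fit). These were Wnt10a (-0.66), Wnt5b (-0.98), Ror1 (-0.55), Fzd2 (-0.43) and Lrp5 (-0.31). Without control replicate 1 none was lower (against 9.83% of all tested genes), and Lrp5 and Ror1 had values of 0.14 and 0.0135.

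Over the 19 tested members, groups did not overlap for 11 (9 higher and 2 lower in resistant), or 57.9%, against 56.7% of all tested genes. The share of members whose groups were apart was thus near the background. The median absolute log2 difference within a pair was 0.15 in resistant and 0.31 in control libraries over the members, against 0.14 and 0.22 over all tested genes.

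Lists of other Wnt pathway genes held 91 genes, of which 68 were tested, 5 rose and 6 fell, with a median log2 fold change of -0.03. These 11 calls were 16.2% of the tested list genes, against 10.1% of all tested genes called in either direction. None of the 17 cytoplasmic genes, which include the beta-catenin gene Ctnnb1 and the destruction complex genes, passed limma or voom, with 2 higher and 3 lower at an unadjusted p under 0.05. Ctnnb1 itself had 75667 and 87026 normalized counts in resistant and 63764 and 54638 in control libraries (log2 fold change 0.46 ± 0.15, limma adjusted p = 0.095). None of the 6 genes for lipidation and secretion passed either, with 0 higher and 1 lower at that unadjusted p. That gene was Wls, which encodes the carrier that brings Wnt ligands to the cell surface, with 14671 and 15230 in resistant and 20709 and 18173 in control libraries (-0.38 ± 0.11, limma adjusted p = 0.0832).

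At the receptor level, Adgra2 and Lgr4 rose. Adgra2 encodes an adhesion receptor that works with the membrane protein Reck and Frizzled receptors to make cells respond to Wnt7a and Wnt7b. Adgra2 had 361 and 503 normalized counts in resistant and 38.4 and 45.4 in control libraries, higher by 3.32 ± 0.25 on the log2 scale (SE, limma adjusted p = 0.000575). Reck did not pass, with 1377 and 1702 in resistant and 1788 and 1329 in control libraries and a log2 fold change of -0.01 ± 0.18. Adgra2 was the 1 gene called of 6 tested in its list of other receptors. Lgr4 encodes a receptor for R-spondins, which strengthen Wnt signals by keeping Frizzleds at the surface. It had 2165 and 2049.7 in resistant and 1168 and 1282 in control libraries (0.78 ± 0.12, limma adjusted p = 0.00857). Its ligand gene Rspo3 fell to 43.8 and 43.98 in resistant, against 106 and 96.8 in control libraries (-1.19 ± 0.25, limma adjusted p = 0.0287), and the other 2 tested genes of the R-spondin list, Lgr6 and Znrf3, did not pass.

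Among extracellular antagonists outside the Dkk and Sfrp families, 1 of 6 tested genes changed. Notum, a secreted enzyme that removes the lipid from Wnt ligands, fell to 4366 and 5985 normalized counts in resistant, against 14501 and 8723 in control libraries (log2 fold change -1.14 ± 0.24, limma adjusted p = 0.0287). Its direction was opposite to that of Sfrp1 and Sfrp4. Frzb, another gene of the Sfrp family by structure, had no read. Of 12 tested nuclear genes 3 fell, with a list median of -0.25: the TCF genes Tcf7 (-1.17 ± 0.19) and Tcf7l2 (-0.71 ± 0.17) and the corepressor Tle1 (-0.59 ± 0.11). Tcf7 had 149 and 173 normalized counts in resistant and 385 and 340 in control libraries. Of 11 tested planar polarity genes 1 fell in limma, the cadherin Celsr1 (-1.49 ± 0.19), at 265 and 260 in resistant and 857 and 636 in control libraries. The voom fit also called Prickle1 higher, at 805 and 788 in resistant and 282 and 535 in control libraries (limma log2 fold change 1.03 ± 0.28, limma adjusted p = 0.058). At a limma unadjusted p under 0.05, 1 gene of this list was higher and 4 were lower.

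Genes known as Wnt targets and feedback regulators moved both ways, with 3 of 10 tested higher and 2 lower. Axin2, a negative feedback gene widely used as a readout of beta-catenin activity, had 48.9 and 76.2 normalized counts in resistant and 17.3 and 12.1 in control libraries (log2 fold change 2.00 ± 0.38, limma adjusted p = 0.0189). The receptor gene Tnfrsf19 had 5737 and 5004 in resistant and 1844 and 1947 in control libraries (1.50 ± 0.12, limma adjusted p = 0.000589), and Myc rose by 0.63 ± 0.14. The 2 that fell were Notum and Tcf7, which also belong to the lists above. Sp5 had no read, and Lef1, Nkd1, Nkd2, Lgr5 and Rnf43 were below the limit for testing.

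Leaving out a resistant library reduced the 11 calls in these lists to 3 without resistant replicate 1 (4.41%, against 3.06% of all tested genes) and 4 without resistant replicate 2 (5.88%, against 2.91%). Adgra2, Tnfrsf19 and Celsr1 passed in both cases. Notum passed without resistant replicate 2 but not without resistant replicate 1 (-0.91). The others did not pass in either case. With resistant replicate 1 and then 2 left out, log2 fold changes were 2.32 and 1.69 for Axin2, 0.74 and 0.82 for Lgr4, 0.65 and 0.60 for Myc, and -1.18 and -1.19 for Rspo3. They were -1.06 and -1.28 for Tcf7, -0.62 and -0.80 for Tcf7l2, and -0.60 and -0.58 for Tle1. Without control replicate 1, 28 list genes passed (41.2%, against 22.5% of all tested genes), and without control replicate 2, 23 passed (33.8%, against 28.6%).

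**Figure D5:**
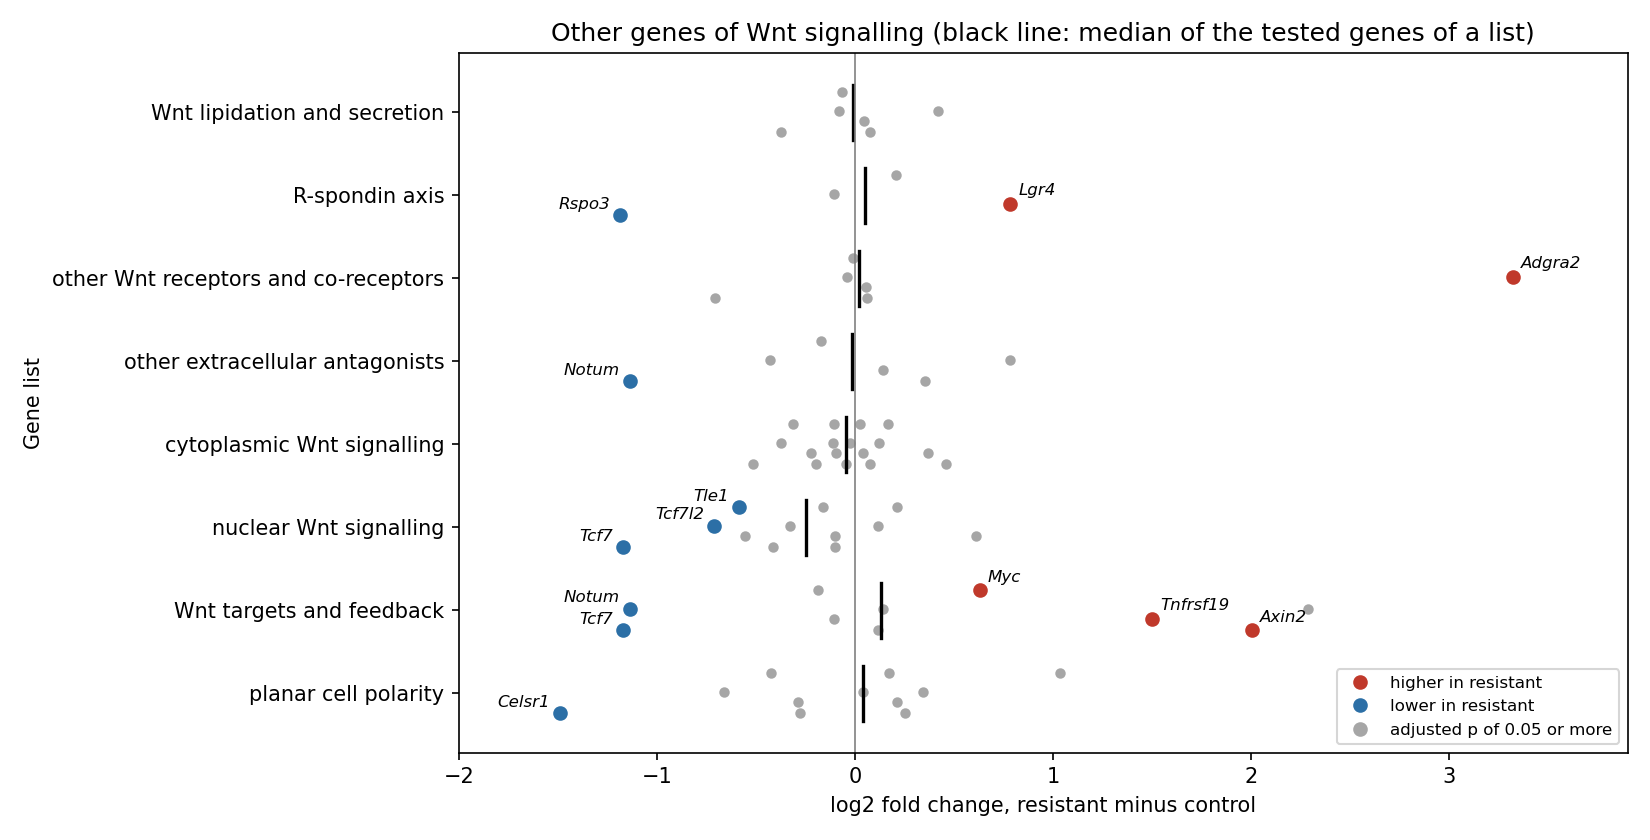
Log2 fold change, resistant minus control, of the tested genes in 8 lists of other Wnt pathway genes, with a black line at each list's median; red and blue points passed the adjusted threshold. Called genes lie on both sides of 0, from Celsr1 (-1.49) to Adgra2 (3.32), and list medians lie between -0.25 and 0.13.

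Markers of other cell types were read beside these results. Of all tested genes, 5.32% rose and 4.73% fell in limma, and 5.21% and 4.51% in voom. At a limma unadjusted p under 0.05 the shares were 13.8% higher and 12.6% lower. Of 8 tested pericyte and smooth muscle markers 4 rose (Des, Pdgfrb, Notch3 and Cnn1) and none fell in limma or voom (5 higher and 1 lower at an unadjusted p under 0.05), with a list sum of 1260 and 1571 normalized counts in resistant and 736 and 649 in control libraries. The other 4 tested genes of that list were not called, with log2 fold changes of -0.05 for Rgs5, -0.88 for Myh11, -1.64 for Abcc9 and 1.33 for Acta2. Every gene of that list of 10 had a read, though the pericyte channel gene Kcnj8 had 2.15 normalized counts in resistant replicate 2 and no read elsewhere. Fibroblast markers summed to 18396 and 22738 in resistant and 21201 and 14615 in control libraries, with 1 of 5 tested, Dcn, lower and Dpt at 0. The largest parts of that sum were Gsn, at 10394 and 13177 in resistant and 11040 and 7851 in control libraries, and Pdgfra. Pdgfra had 6940 and 8313 in resistant and 8504 and 5766 in control libraries, and neither gene was called. Endothelial markers summed to 569 and 703 in resistant and 578 and 446 in control libraries, with Vwf higher of 4 tested and Cldn5 at 0. Of 3 tested skeletal muscle markers only Des rose, the gene already counted in the pericyte and smooth muscle list. Des had 340 and 453 in resistant and 114 and 73.6 in control libraries. The skeletal muscle sum, with Des, was 502 and 593 in resistant and 209 and 208 in control libraries. Myod1, Myog and Pax7 were at 0. In the leukocyte list Cd68 rose, 1 of 2 tested, and the sum was 10974 and 10383 in resistant and 4036 and 6782 in control libraries. Adipocyte markers summed to 51.0 and 65.4 in resistant and 38.4 and 12.1 in control libraries with Lep at 0, and Schwann cell markers to 3337 and 3195 in resistant and 2617 and 2679.8 in control libraries, with no gene called by limma or voom and 1 gene higher and 0 lower at an unadjusted p under 0.05 in each list. Of the 8 tested carcinoma and epithelial markers 3 rose (Krt19, Krt7 and Cldn4) and 2 fell (Epcam and Cldn3), and the sum over the list was 47813 and 55644 in resistant and 66693 and 43176 in control libraries. The part of these markers in the changes of Fzd9, Fzd4, Sfrp4 and Sfrp1 was not tested.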

How the data were processed

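Total RNA of 4 mouse samples was sequenced. The deposited table holds log2 values per gene and library. The authors used STAR, DESeq2 and mm10, per the submitters' processing notes, with no versions. From the values, each is log2 of reads divided by a size factor, plus 1: 2 to the value, minus 1, was a whole number of equal steps in each library for 100% of the values (tolerance 0.01 reads), so reads were recovered. Groups came from the source labels, columns from titles. Symbols, exon lengths and coordinates are from GENCODE M21 on GRCm38 (55144 of 55385 identifiers matched without version), promoters from RefSeq on GRCm38.p6.

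A gene was tested if its mean over the 4 libraries reached 10 normalized counts. The test was limma 3.58.1 in R 4.3.3 (lmFit and trended eBayes, without a replicate block) on the deposited log2 values, at a Benjamini-Hochberg adjusted p of 0.05 over all 14238. The pseudocount of 1 understates changes of low genes. Steps were tested on simulated data whose noise was set and not fitted to these libraries, so they give no error rate for the calls here. Members and lists were chosen with earlier results of these data known. Named were all members, up to 4 called genes per pathway list, Adgra2 and Reck. Myc, called in the list of Wnt targets and feedback but outside that limit of 4, was named as well. The markers of highest mean in each list were planned, but not all of them are named. Further list genes at 0 or without a call, and marker genes that were called, were named after their values were seen. Alternatives were other pseudocounts, filters, scalings and moderation, voom, a replicate block and leaving out each library. Of the planned scalings, TMM was not run, since it belongs to a count package.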

Additional observations from a re-analysis of the deposited data

How the results depend on the processing

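The direction of Fzd9, Fzd4, Sfrp4 and Sfrp1 was the same under every alternative run. Both resistant libraries lay above both controls for these genes, so leaving out a library could not reverse it. Filters that kept the gene, moderation and the block left the log2 fold change itself unchanged. Against 4 members higher, 2 passed with a mean of at least 50, which drops Fzd9 and Sfrp4 from the test, 0 without a filter on low values, and 1 (Fzd9) without a trend. With 1 library left out 0 to 6 members were higher and 0 to 5 lower. Genes higher in all were 758, against 126 without the filter, 266 without a trend and 146 to 2074 with 1 library left out; genes lower were 674, against 185, 357 and 234 to 1993. Pathway list calls were 11, against 3 without the filter, 6 without a trend and 3 to 28 with 1 library left out. Leaving out a library leaves 1 in its group, assumed to vary like the other pair. A replicate block gave 3 higher and 0 lower: Fzd4 and Sfrp1 were lost (adjusted p = 0.0524 and 0.0617) and Wnt7b gained. The replicate number is only a shared number in the labels, and same-numbered libraries tended to deviate in opposite directions (r = -0.36 across genes). No fit took this into account. Wnt7b also passed with upper-quartile scaling. Uncalled values changed sign. Scaled to total reads, Fzd7 was -0.0155 and Lrp6 -0.0027. With 1 library left out, values ranged from -0.21 to 0.0125 for Fzd6, -0.0245 to 0.0738 for Fzd7, -0.31 to 0.14 for Lrp5, -0.11 to 0.19 for Lrp6, -0.55 to 0.0135 for Ror1, -0.87 to 0.35 for Wnt2b, -0.44 to 0.35 for Wnt6 and -0.22 to 0.20 for Reck. The causes were not tested. With 2 libraries a group, and 9 to 53 normalized counts for Fzd9 and Sfrp4, counting error adds to the spread of these genes.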
